A study of Homo sapiens with 18 samples.

Results

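The nuclear RNA exosome and the adaptors that bring RNA to it were followed in 2 sarcoma lines with and without the chaperone gene DNAJC17. The genes were 10 listed members of this machinery, MTREX, ZFC3H1, PABPN1, ZCCHC8, RBM7, EXOSC3, EXOSC9, EXOSC10, DIS3 and TENT4B, out of 57500 genes in the count tables. The rule was a list of names and used no measured value, although the list was drawn up with earlier results of these data known. All 10 passed the filter on low counts in every comparison. ES8 is an established Ewing sarcoma line and Rh30 an established rhabdomyosarcoma line. Each line gave 3 groups of 3 libraries. The groups were parental cells with a control guide (sgCTL), parental cells with a guide against DNAJC17 (sgDNAJC17), and cells that stably carried a DNAJC17 copy without its RNA recognition motif and received the same guide against the endogenous gene (dRRM sgDNAJC17). All cells carried the dCas9-KRAB repressor and spent 72 h in puromycin after lentiviral transduction, and polyadenylated RNA was sequenced. Per the paper's methods, the vector that carried the copy was selected in hygromycin, a step not described for the parental cells. No library held the dRRM copy with sgCTL. The effects of the copy alone, of its transduction and selection, and of the copy on the knockdown therefore cannot be told apart. Replicates, lettered A to C, were plated in triplicate, so p-values measure the spread between these samples, which may be technical.

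The nuclear exosome is a barrel of non-catalytic subunits through which RNA is threaded to nucleases. EXOSC3 is a cap subunit and EXOSC9 a ring subunit of that barrel, while DIS3 and EXOSC10 are its nucleases. The helicase MTREX (MTR4) unwinds RNA for the barrel and joins different adaptors. With ZCCHC8 and the RNA-binding protein RBM7 it forms the NEXT complex, which takes short unadenylated transcripts such as promoter upstream transcripts. With the zinc-finger scaffold ZFC3H1 and the nuclear poly(A)-binding protein PABPN1 it forms the PAXT connection, which takes longer polyadenylated nuclear RNA. TENT4B (PAPD5) is a poly(A) polymerase of the TRAMP-like complex, which adds short tails to precursors before trimming. Precursors of small nucleolar RNAs and transcripts that run away from promoters are well-known substrates.

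The libraries held 35342393 to 48245989 counts, and the 10 genes held between 234 and 6738 counts in a library. Levels below are CPM, the count of a gene relative to the size of its library, after TMM scaling over all 18 libraries. DNAJC17 was lower in every parental library with its guide than in every control library: it was 11.96 ± 0.701 CPM (SD, n = 3) in ES8 sgCTL and 1.69 ± 0.233 in ES8 sgDNAJC17, and 11.5 ± 0.577 and 2.48 ± 0.261 in Rh30. In the dRRM libraries it was 300.3 ± 15.0 CPM in ES8 and 355.7 ± 17.0 in Rh30, reads that include those of the introduced copy, so repression of the endogenous gene was not measured there. Ewing markers summed to 405 to 473 CPM in ES8 and at most 0.301 CPM in Rh30. Rhabdomyosarcoma markers summed to 4506 to 4576 CPM in Rh30 sgCTL and 2914 to 3229 CPM in Rh30 dRRM sgDNAJC17, with TFAP2B at 0 counts in Rh30, and to 68.2 to 101 CPM in ES8. Of 17 epithelial markers, 10 were higher in all 6 Rh30 libraries with the DNAJC17 guide than in every Rh30 sgCTL library. That list was taken from earlier results of these data, so the count partly follows from the choice. The share of all genes that did so was not counted. KRT8 was at 284 to 486 counts against 28 to 41, while CLDN7 (3 to 8), RAB25 (1 to 4) and AGR2 (3 to 7) held few counts even in the 6 libraries.

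The genes lie on different chromosomes except for ZFC3H1 and ZCCHC8, which share chromosome 12. On GRCh38, MTREX is at chr5:55307760-55425581, ZFC3H1 at chr12:71609472-71667725, PABPN1 at chr14:23321289-23326185, ZCCHC8 at chr12:122471600-122501073 and RBM7 at chr11:114400030-114414203. EXOSC3 is at chr9:37766978-37801437, EXOSC9 at chr4:121801317-121817021, EXOSC10 at chr1:11066618-11099881, DIS3 at chr13:72752169-72782096 and TENT4B at chr16:50152918-50235310. ZCCHC8 and TENT4B share no exonic base with another gene. EXOSC10 shares most, 39.3% of its exonic bases, of which 2196 bases lie opposite an antisense lncRNA (ENSG00000226849) that held 0 to 10 counts in sgCTL and sgDNAJC17 libraries. Whether reads were counted by strand was not stated, so reads from a gene and from its antisense partner cannot be told apart. PABPN1 shares 653 exonic bases on the same strand with the read-through gene BCL2L2-PABPN1, which held 17 to 38 counts, so its own count carries that uncertainty.

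Ewing sarcoma carries a fusion with an ETS factor, so the promoters were searched for the letters CCGGAAG on either strand. These letters are one sequence that ETS-family factors bind, and no other was searched. RefSeq promoters of 250 bases before to 50 after a start (GRCh38.p14) held them in 10.3% of 35116 cases. The members had 13 such promoters, of which 2 (15.4%) held them, in 2 of the 10 genes. The 2 windows of 30 bases below are shown because one belongs to the gene that moved most after knockdown in ES8. Capitals mark the matched letters, which start 160 bases before the RefSeq start of ZFC3H1 (chr12:71663990-71664019, minus strand) and 247 before that of DIS3 (chr13:72782121-72782150, minus strand). These RefSeq starts differ from those of the genes as counted. The ZFC3H1 window lies inside the counted gene, which begins at 71667725, and the DIS3 window lies close before its counted start at 72782096. A match describes the sequence only, and no binding was measured.
ZFC3H1: tgaccctaggaCCGGAAGagtaaacccgaa
DIS3: ccgCCGGAAGtcaactctcccggatgttcc

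Per kilobase of exon, the core subunits and the helicase stood above the adaptors other than PABPN1 in cells with the control guide. In ES8 sgCTL the helicase MTREX led with 19.2 ± 1.07 CPM per kb (SD, n = 3), followed by EXOSC10 with 17.8 ± 0.598, PABPN1 with 15.3 ± 0.378, EXOSC3 with 10.5 ± 0.227 and EXOSC9 with 9.75 ± 0.477. The lower part of the order was DIS3 with 3.17 ± 0.0841, ZFC3H1 with 2.58 ± 0.0888, ZCCHC8 with 2.36 ± 0.0587, RBM7 with 1.93 ± 0.191 and TENT4B with 1.68 ± 0.291. The ranges of MTREX and EXOSC10 overlapped, as did those of RBM7 and TENT4B, and other neighbours did not overlap. In Rh30 sgCTL no neighbours overlapped, and PABPN1 came first with 20.3 ± 0.557 CPM per kb, ahead of MTREX with 16.8 ± 0.404 and EXOSC10 with 15.6 ± 0.186. The middle of that order was EXOSC3 with 14.0 ± 0.455, EXOSC9 with 11.3 ± 0.339, DIS3 with 5.24 ± 0.141 and RBM7 with 3.43 ± 0.299. It ended with ZCCHC8 at 2.17 ± 0.0554, TENT4B at 1.55 ± 0.0610 and ZFC3H1 at 1.20 ± 0.0966 CPM per kb. ZFC3H1, the scaffold of PAXT, was above RBM7, the RNA-binding subunit of NEXT, in ES8 and last of all in Rh30.

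**Figure D1:**
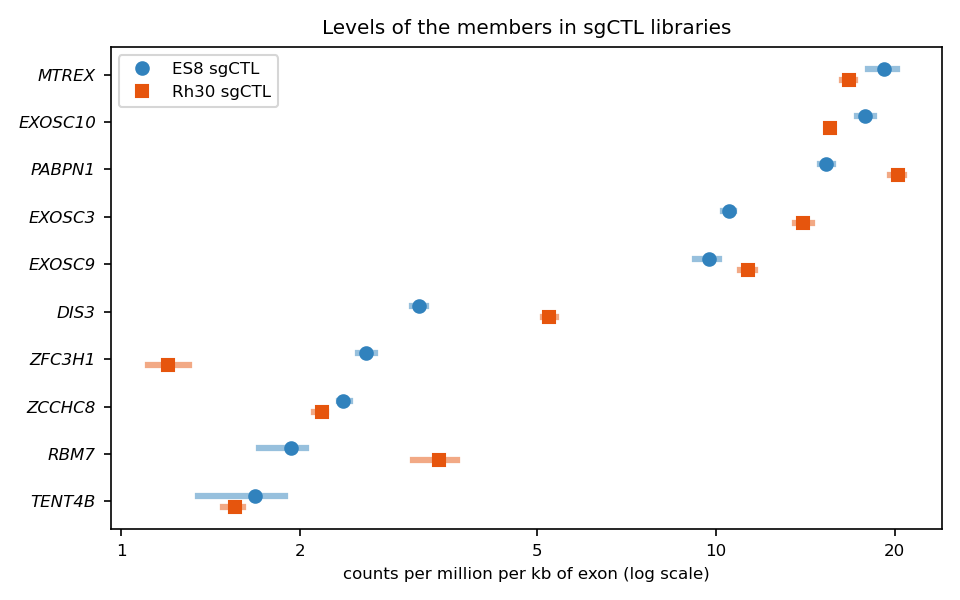
Level of each member in CPM per kb of exon (log scale) in ES8 sgCTL (circles) and Rh30 sgCTL (squares), n = 3 libraries each, points at the mean and bars from the lowest to the highest library. ZFC3H1 is at 2.58 in ES8 and 1.20 in Rh30, and RBM7 at 1.93 and 3.43.

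The 2 lines differed at baseline in 9 of the 10 genes. Of these, 5 were higher in Rh30 sgCTL than in ES8 sgCTL (RBM7, DIS3, EXOSC3, PABPN1 and EXOSC9) and 4 lower (ZFC3H1, MTREX, EXOSC10 and ZCCHC8), while TENT4B did not pass the test. Over all 17925 genes tested, 42% were called higher and 45.5% lower at the same adjusted p under 0.05, so the share of members called was close to the background. ZFC3H1 showed the largest difference, with 24.2, 24.7 and 25.9 CPM in ES8 libraries A to C and 12.6, 10.8 and 11.5 in Rh30. The groups did not overlap and the log2 difference was -1.13 ± 0.07 (SE), the only one past a fold change of 2 (edgeR adjusted p = 3.37e-18). RBM7 was at 15.98, 13.5 and 16.2 CPM in ES8 and 24.4, 27.7 and 29.0 in Rh30, a log2 difference of 0.80 ± 0.07. DIS3 was at 33.4, 34.3 and 35.2 CPM in ES8 and 56.2, 55.6 and 58.5 in Rh30, a difference of 0.70 ± 0.05. Every Rh30 library was above every ES8 library for RBM7 and DIS3. The difference of the other called genes lay between -0.22 and 0.39. That of ZCCHC8 (-0.15, adjusted p = 0.0375) was lost when any 1 library other than ES8 sgCTL B was left out (adjusted p 0.0557 to 0.116), and TENT4B (-0.14, adjusted p = 0.129) was called without ES8 sgCTL B, at -0.27 (adjusted p = 0.0028), with library size alone (-0.36, 0.000492) and with at least 10 counts in every library (-0.23, 0.0184). Scaling by library size alone moved the median of all genes from -0.07 to -0.28 and turned EXOSC9 from 0.19 to -0.03.

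Knockdown of DNAJC17 lowered 2 of the 10 genes in ES8, the PAXT scaffold ZFC3H1 and the nuclease EXOSC10. It lowered the same 2 genes in Rh30, where 5 others rose, by at most 1.21-fold: the NEXT subunits ZCCHC8 and RBM7, the cap subunit EXOSC3, the nuclease DIS3 and the poly(A) polymerase TENT4B. No member reached a fold change of 2 in either line. In ES8, 13.6% of 17143 genes were called higher and 13.8% lower, and in Rh30 16.1% of 15391 were called higher and 16.2% lower, so the 2 members called lower in each line are near what the background holds. The share of all genes called lower in both lines was not counted. The median log2 fold change of the members was -0.10 in ES8 and 0.19 in Rh30, against -0.02 and 0.00 for all genes tested.

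ZFC3H1 changed most. It was at 24.2, 24.7 and 25.9 CPM in ES8 sgCTL and at 12.2, 19.1 and 17.9 in ES8 sgDNAJC17. Every knockdown library was below every control library, and library A was the lowest, with a log2 fold change of -0.63 ± 0.14 (SE, edgeR adjusted p = 0.00982). In Rh30 it was at 12.6, 10.8 and 11.5 CPM in sgCTL and 8.81, 9.06 and 9.86 in sgDNAJC17, again without overlap (-0.31 ± 0.10, adjusted p = 0.022). The 2 falls were not shown to differ, as the interaction of line and knockdown was 0.34 ± 0.17 (adjusted p = 0.215). THAP2, which lies opposite 961 exonic bases of ZFC3H1, did not pass the test in either line (log2 fold changes of 0.17 and 0.05). In ES8 the ZFC3H1 call held without any 1 library (adjusted p at most 0.0444). In Rh30 it was lost without sgCTL A (-0.25, adjusted p = 0.112), sgCTL C (-0.32, 0.0527) or sgDNAJC17 B (-0.30, 0.0777).

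EXOSC10, the nuclease that trims ribosomal and small nucleolar RNA precursors, fell by a like amount in both lines. In ES8 it was at 107, 104 and 111 CPM in sgCTL and 89.3, 92.3 and 97.1 in sgDNAJC17, a log2 fold change of -0.23 ± 0.06 (adjusted p = 0.0164). In Rh30 it was at 94.3, 92.2 and 94.0 CPM in sgCTL and 78.4, 77.6 and 82.4 in sgDNAJC17, a change of -0.22 ± 0.06 (adjusted p = 0.0122). In neither line did the 2 groups overlap, and the interaction was 0.03 ± 0.09 (adjusted p = 0.887). The ES8 call was lost without sgCTL A, B or C or sgDNAJC17 B (-0.24, -0.25, -0.21 and -0.22, adjusted p 0.0532 to 0.0956), and the Rh30 call without sgCTL A (-0.21, adjusted p = 0.0525) or sgDNAJC17 B (-0.20, 0.071).

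**Figure D2:**
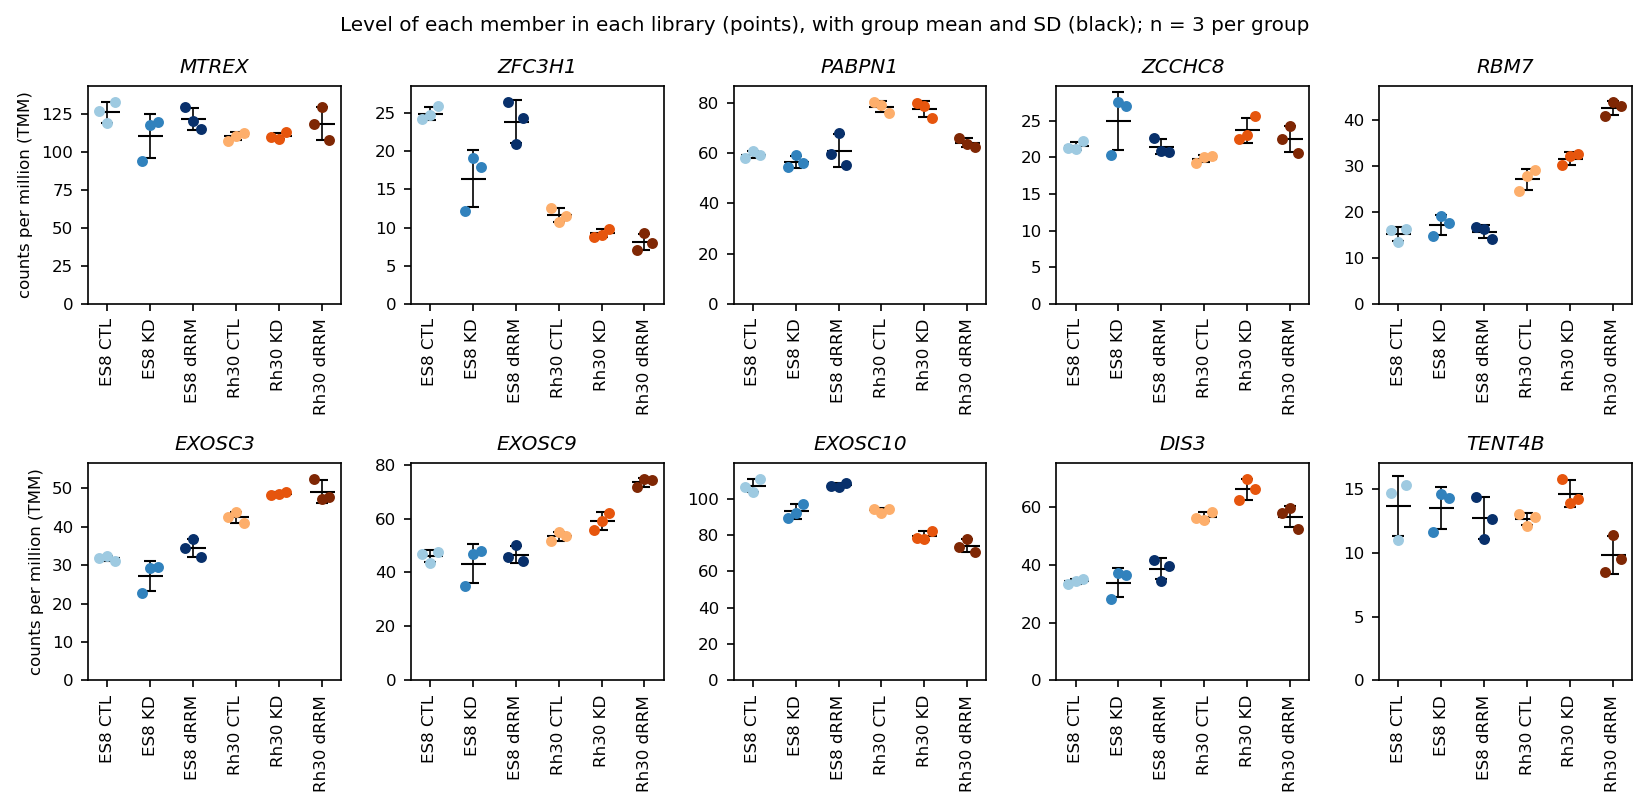
CPM of each member in every library (points, letters A to C from left to right) with the group mean and SD (black), for sgCTL (CTL), sgDNAJC17 (KD) and dRRM sgDNAJC17 (dRRM) in ES8 (blue) and Rh30 (orange), axes from 0. ZFC3H1 has group means of 24.9, 16.4 and 23.9 CPM in ES8 and of 11.6, 9.24 and 8.11 in Rh30.

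The cap subunit EXOSC3 was the only member whose response was found to differ between the lines. It was at 32.0, 32.4 and 31.1 CPM in ES8 sgCTL and 22.7, 29.2 and 29.6 in ES8 sgDNAJC17, all 3 knockdown libraries below the controls. In Rh30 it was at 42.5, 43.8 and 41.1 CPM in sgCTL and 48.3, 48.6 and 49.0 in sgDNAJC17, all 3 above the controls. The log2 fold change was -0.25 ± 0.10 in ES8, which did not pass the test (adjusted p = 0.0936), and 0.21 ± 0.06 in Rh30, which did (adjusted p = 0.0183). The interaction was 0.49 ± 0.11 (adjusted p = 0.0105), against a background of 5.23% of 18899 genes called positive and 4.55% called negative, and it was lost without Rh30 sgCTL A (0.43, adjusted p = 0.0673). All 10 members had a positive interaction value, but the other 9 did not pass.

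The members that rose in Rh30 did so by small amounts. ZCCHC8, the NEXT scaffold, went from 19.3, 20.1 and 20.2 CPM in sgCTL to 22.4, 23.0 and 25.7 (0.27 ± 0.08, adjusted p = 0.0161). DIS3 went from 56.2, 55.6 and 58.5 to 62.4, 69.9 and 66.2 CPM (0.24 ± 0.07, adjusted p = 0.0137). RBM7 went from 24.4, 27.7 and 29.0 to 30.1, 32.1 and 32.5 CPM (0.24 ± 0.08, adjusted p = 0.0302). In none of these did the groups overlap. TENT4B went from 13.0, 12.1 and 12.8 to 15.8, 13.9 and 14.3 CPM (0.23 ± 0.08, adjusted p = 0.0483), a call lost without any 1 of the 6 libraries (0.18 to 0.26, adjusted p 0.0657 to 0.172) and by DESeq2 (0.0922). EXOSC9 had 0.16 ± 0.07 and did not pass (adjusted p = 0.0792), but did once the replicate letter was a block (0.16, adjusted p = 0.00617), in a comparison where same-lettered libraries deviated together. MTREX (0.02, adjusted p = 0.832) and PABPN1 (-0.0026, adjusted p = 0.981) did not pass, and their groups overlapped. BORA, which shares 1180 exonic bases with DIS3 on the opposite strand, rose in Rh30 as well (0.23, adjusted p = 0.0368).

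How many Rh30 members were called depended on the libraries kept, in fits without a replicate block. So did the calls over all genes, which were 2473 higher and 2501 lower of 15391 with all libraries. They were 1539 and 1643 of 15863 without sgCTL A, and 1497 and 1569 of 15834 without sgDNAJC17 B. Without sgDNAJC17 A they were 3190 and 3310 of 15705. Without sgCTL B, sgCTL C or sgDNAJC17 C they were 1827 to 1870 higher and 1879 to 1995 lower. With all libraries 7 members were called, and the number was 0 without sgCTL A, 4 without sgCTL B, 4 without sgCTL C, 7 without sgDNAJC17 A (EXOSC9 among them at 0.21, TENT4B not), 1 without sgDNAJC17 B and 4 without sgDNAJC17 C. Without sgCTL A the log2 fold changes were 0.25 for ZCCHC8, 0.23 for DIS3, 0.21 for EXOSC3, 0.25 for TENT4B and -0.21 for EXOSC10, close to those of the full fit, while RBM7 (0.17) and ZFC3H1 (-0.25) were smaller. With the replicate letter as a block, in a comparison where same-lettered libraries deviated together, 8 members were called (6 higher and 2 lower), with adjusted p from 0.000102 (EXOSC10) to 0.0107 (TENT4B). Over all 15391 genes the block called 3621 higher and 3614 lower. At an unadjusted p under 0.05 edgeR without the block gave 6 members higher and 2 lower with all 6 libraries. Over all genes that gave 3246 higher and 3276 lower. DESeq2 called 4 members higher and 2 lower, and 2245 and 2364 of 14860 genes. Scaling by library size alone kept none of the 5 calls of a rise, though the values stayed positive, from 0.15 (EXOSC3) to 0.21 (ZCCHC8). Their edgeR adjusted p was then 0.0503 (DIS3) to 0.161 (TENT4B). That scaling called 1714 of all 15391 genes higher and 3207 lower. The sums over all 17 epithelial markers were 267 to 288 CPM in Rh30 sgCTL and 289 to 313 in Rh30 sgDNAJC17. KRT7, CLDN4, PERP and AP1M2 made up most of these sums, and none was among the 10 markers counted above. The mean of CLDN4 fell from 98.1 to 80.4 CPM, while the means of KRT7, PERP and AP1M2 rose. Of the 10, CLDN7 and RAB25 were at 0 counts in sgCTL. The part of the markers in these results was not tested.

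**Figure D3:**
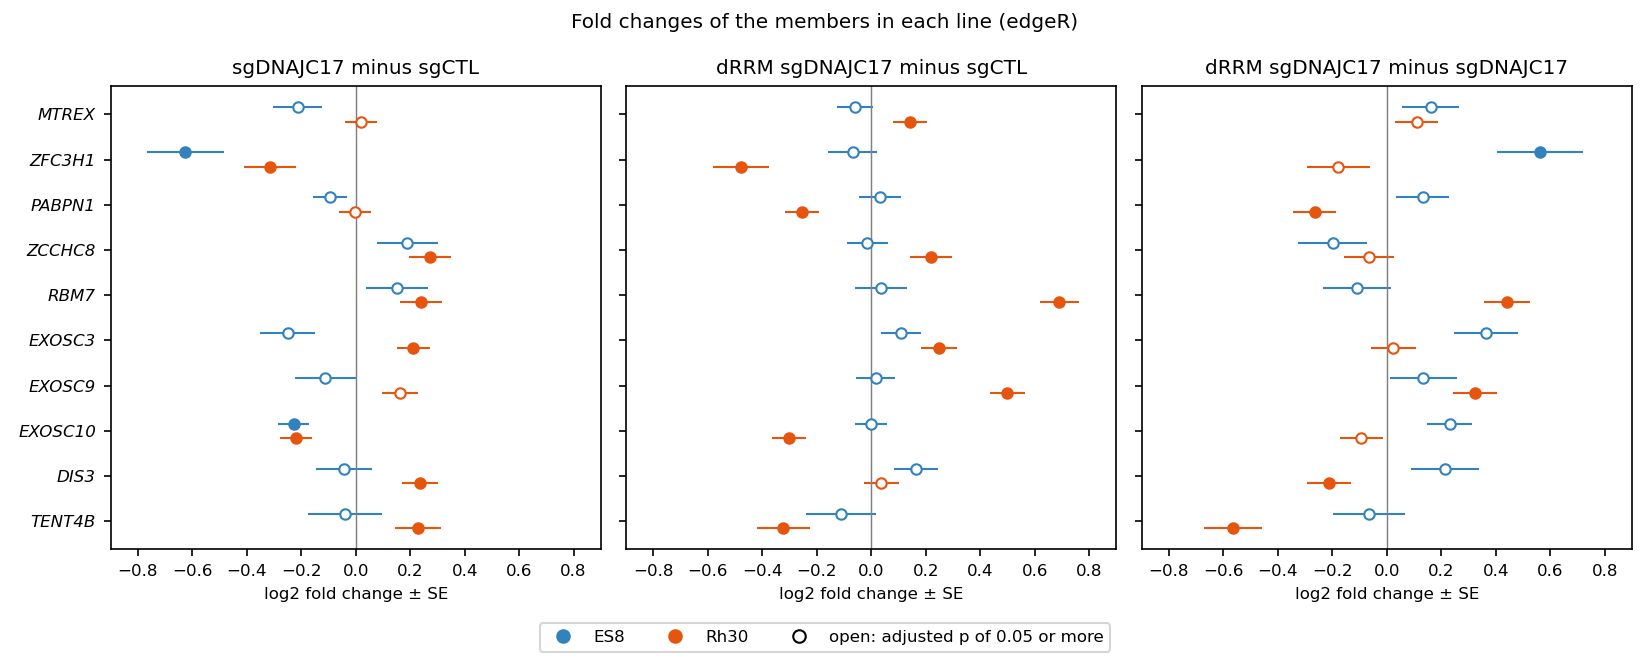
Log2 fold change ± SE (edgeR) of each member in ES8 (blue) and Rh30 (orange) for the 3 comparisons within a line, filled where the adjusted p is under 0.05. ZFC3H1 and EXOSC10 are filled and negative in both lines after knockdown, and no ES8 point is filled for dRRM sgDNAJC17 against sgCTL.

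In ES8, 1 knockdown library stood apart. Replicate A of ES8 sgDNAJC17 was the lowest of its group for all 10 members, while over all 19360 genes it was the lowest for 43.9%. MTREX, for example, was at 94.0 CPM in replicate A and at 118 and 119.8 in the other two, with 127, 119 and 133 in sgCTL. EXOSC9 was at 34.8 against 46.9 and 47.9, and DIS3 at 28.0 against 37.1 and 36.4. Without that library 6 members were called in place of 2. Calls over all genes rose as well, from 2336 higher and 2365 lower of 17143 to 3950 and 4044 of 17652. ZFC3H1 stayed lower at -0.46 (adjusted p = 3.87e-08) and EXOSC10 at -0.20 (2.96e-05), joined by EXOSC3 at -0.14 (0.043) and MTREX at -0.11 (0.0178). ZCCHC8 was then higher at 0.31 (2.73e-05) and RBM7 at 0.24 (0.00613), where the full fit gave 0.19 ± 0.11 (adjusted p = 0.237) and 0.15 ± 0.11 (0.356). EXOSC9, DIS3 and TENT4B changed sign to 0.02, 0.07 and 0.05 and were not called. A group of 2 libraries is assumed in that fit to vary like the control group.

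**Figure D4:**
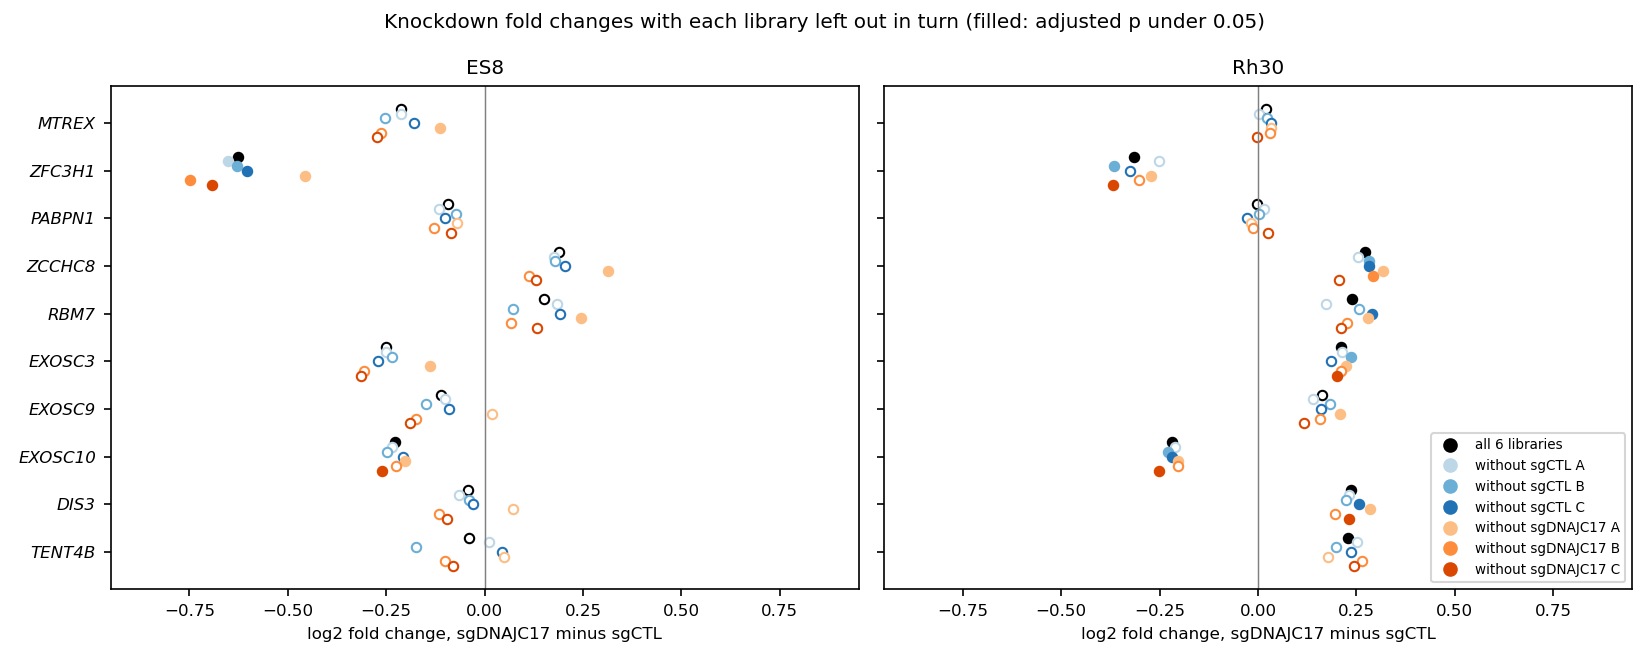
Log2 fold change of each member after knockdown with all 6 libraries (black) and with each library left out in turn (colours), in ES8 (left) and Rh30 (right), filled where the edgeR adjusted p is under 0.05. In ES8, leaving out sgDNAJC17 A moves ZFC3H1 from -0.63 to -0.46 and fills ZCCHC8, RBM7, EXOSC3 and MTREX, and in Rh30 no point is filled without sgCTL A.

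Cells with the dRRM copy were then compared with sgCTL and with knockdown cells. These comparisons share the control or the knockdown libraries with those above, so their values are given side by side and not as separate support. In ES8, 0 of the 10 members differed between dRRM sgDNAJC17 and sgCTL by edgeR, 0 at an unadjusted p under 0.05 and 0 by DESeq2. The background was small too, with 0.093% of 17199 genes called higher and 0.0814% lower. The members' log2 differences ran from -0.11 (TENT4B) to 0.16 (DIS3). ZFC3H1 was at 26.4, 20.9 and 24.3 CPM, overlapping the controls (-0.07 ± 0.09, adjusted p = 0.754). EXOSC10 was at 107, 106 and 109 CPM (-0.0025 ± 0.06, adjusted p = 0.989).

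Against ES8 knockdown cells, ZFC3H1 was higher in the dRRM cells, every dRRM library above every knockdown library (0.56 ± 0.16, adjusted p = 0.0325), and no other member passed. The background was 7.35% of 17099 genes called higher and 7.36% lower. EXOSC3 had 0.36 ± 0.12 (adjusted p = 0.0581) and EXOSC10 0.23 ± 0.08 (adjusted p = 0.0781), also without overlap between the groups. The ZFC3H1 call was lost without dRRM A (0.49, adjusted p = 0.0769) or dRRM C (0.55, 0.0953). Without knockdown replicate A, ZCCHC8 was called lower at -0.32 (adjusted p = 0.0295).

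In Rh30, by contrast, 9 of the 10 members were called between the dRRM cells and sgCTL, in a comparison where most genes were. Of 15442 genes tested, 33.8% were called higher and 35% lower, and of the members 5 were higher (RBM7, EXOSC9, EXOSC3, ZCCHC8 and MTREX) and 4 lower (ZFC3H1, TENT4B, EXOSC10 and PABPN1). DIS3 alone did not pass (0.04 ± 0.07, adjusted p = 0.629). RBM7 rose most, from 24.4, 27.7 and 29.0 CPM in sgCTL to 40.9, 43.8 and 42.9, a log2 difference of 0.69 ± 0.07 (adjusted p = 7.06e-13). EXOSC9 went from 51.7, 54.9 and 53.5 CPM to 71.6, 74.8 and 74.1 (0.50 ± 0.06, adjusted p = 4e-10). For both, every dRRM library was above every Rh30 sgCTL and sgDNAJC17 library. ZFC3H1 was lower still than in the knockdown, at 7.09, 9.24 and 7.99 CPM (-0.48 ± 0.10, adjusted p = 3.87e-05), and overlapped the knockdown libraries. EXOSC10 was at 73.3, 77.8 and 70.7 CPM (-0.30 ± 0.06, adjusted p = 2.31e-05).

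TENT4B was lower in the Rh30 dRRM cells than in either other Rh30 group. It was at 13.0, 12.1 and 12.8 CPM in Rh30 sgCTL, 15.8, 13.9 and 14.3 in sgDNAJC17 and 8.54, 11.4 and 9.56 in dRRM sgDNAJC17, the lowest group without overlap (-0.32 ± 0.10 against sgCTL, adjusted p = 0.00292). PABPN1 was at 80.4, 79.2 and 76.2 CPM in sgCTL, 80.2, 78.7 and 74.1 in sgDNAJC17 and 66.3, 63.8 and 62.6 in dRRM sgDNAJC17. All 3 dRRM libraries were below the others (-0.25 ± 0.06 against sgCTL, adjusted p = 0.00031). EXOSC3 was at 0.25 ± 0.07, ZCCHC8 at 0.22 ± 0.08 and MTREX at 0.14 ± 0.06 on the log2 scale. The MTREX call (adjusted p = 0.0431) was lost without any 1 of the Rh30 sgCTL libraries or dRRM A or B (0.08 to 0.16, adjusted p up to 0.277), the ZCCHC8 call without dRRM B (0.16, adjusted p = 0.0727) and the TENT4B call without dRRM A (-0.21, 0.0703). Scaling by library size alone moved the median of all genes from -0.01 to -0.25, and MTREX, ZCCHC8 and DIS3 then turned to -0.09, -0.01 and -0.20. RBM7 and EXOSC9 remained the members called higher. The members called lower then numbered 5, as DIS3 joined the other 4.

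Measured against Rh30 knockdown cells, RBM7 (0.44 ± 0.08, adjusted p = 5.27e-06) and EXOSC9 (0.32 ± 0.08, 0.000295) were higher in the dRRM cells. TENT4B (-0.56 ± 0.11, adjusted p = 4.11e-06), PABPN1 (-0.26 ± 0.08, 0.00271) and DIS3 (-0.21 ± 0.08, 0.0185) were lower, where 29.4% of 15309 genes were called higher and 30.5% lower. The DIS3 call was lost without sgDNAJC17 B (-0.17, adjusted p = 0.155) or dRRM C (-0.17, 0.117). ZFC3H1 (-0.18 ± 0.12, adjusted p = 0.185) and EXOSC10 (-0.09 ± 0.08, 0.304) did not pass. With library size alone, which moved the median of all genes from -0.01 to -0.17, 1 member was called higher and 6 lower. ZFC3H1 (-0.34, adjusted p = 0.0125), EXOSC10 (-0.26, 0.00498) and ZCCHC8 (-0.23, 0.0374) were then among those lower, and EXOSC9 lost its call (0.16, 0.0808). The rhabdomyosarcoma and epithelial marker sums moved with these libraries, the first from 3969 to 4364 CPM in Rh30 sgDNAJC17 to 2914 to 3229 in the dRRM cells and the second from 289 to 313 to 338 to 369. Within the second, CLDN4 (mean 80.4 to 124.0) and AP1M2 (33.4 to 56.1) rose most and KRT7 fell (70.0 to 61.4). None of these was among the 10 markers counted above. The part of the markers in these differences was not tested.

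The difference between dRRM sgDNAJC17 and sgCTL itself differed between the lines for 5 members, in a fit where 19.9% of 18854 genes were called positive and 21.5% negative. RBM7 had an interaction of 0.66 ± 0.12 (adjusted p = 0.000129), with 0.69 in Rh30 and 0.04 in ES8. EXOSC9 had 0.48 ± 0.09 (0.000148), with 0.50 and 0.02. The negative values were those of ZFC3H1 (-0.41 ± 0.14, adjusted p = 0.025), EXOSC10 (-0.30 ± 0.08, 0.00476) and PABPN1 (-0.28 ± 0.10, 0.0188). Thus ZFC3H1 and EXOSC10, lower after knockdown in both lines, were not called against sgCTL in the ES8 dRRM cells. In those of Rh30 both were called lower. The ZFC3H1 call was lost without ES8 sgCTL A, ES8 dRRM A or C, Rh30 sgCTL A or Rh30 dRRM A (-0.31 to -0.39, adjusted p up to 0.105). The other 4 were kept without any 1 library.

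The rest of the pathway was read after knockdown in the same comparisons, where 13.6% of all genes were called higher and 13.8% lower in ES8, and 16.1% and 16.2% in Rh30. The share of all genes called in the same direction in both lines was not counted. Of 32 further genes in 5 lists chosen by function, 3 were called in the same direction in both lines. NCBP2, the small subunit of the nuclear cap-binding complex that links capped RNA to the exosome, was at 86.3 ± 3.23 CPM in ES8 sgCTL and 121.8 ± 10.5 in ES8 sgDNAJC17. In Rh30 it was at 57.7 ± 1.77 and 79.6 ± 0.856 CPM, and it rose in both lines. Its log2 fold change was 0.47 ± 0.07 in ES8 (adjusted p = 0.00146) and 0.48 ± 0.06 in Rh30 (0.000107). In the dRRM cells it was below the knockdown level in both lines (-0.50 ± 0.09 and -0.29 ± 0.08). HBS1L, which in one form bridges the cytoplasmic exosome and the SKI complex, rose by 0.43 ± 0.07 and 0.17 ± 0.06. SKIC2, the helicase of that complex, fell, with log2 fold changes of -0.39 ± 0.10 and -0.28 ± 0.07.

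With the replicate letter as a block, 3621 of all 15391 genes were called higher in Rh30 and 3614 lower, more than without it. Among the 9 other core subunits and cofactors, 1 rose in ES8 and 3 in Rh30, or 6 in Rh30 with the block. In both lines 0 were called lower, with 1 in ES8 and 0 in Rh30 at an unadjusted p under 0.05, and DESeq2 called 0 as well. Their median was 0.01 in ES8 and 0.16 in Rh30. Of the 8 other adaptors, 1 rose in each line and 0 fell, or 3 rose and 1 fell in Rh30 with the block, and of the 6 cap-linked factors 2 rose in each line (3 in Rh30 with the block) and 0 fell. DESeq2 called 0 of either list lower in both lines, and at an unadjusted p under 0.05 edgeR gave 0 in ES8 and, in Rh30, 1 adaptor. Of the 5 cytoplasmic exosome and SKI genes, 1 rose and 3 fell in ES8 (median -0.39) and 1 rose and 1 fell in Rh30 (median -0.09), or 1 and 2 with the block. Of 4 other exonucleases of small RNAs, 1 rose and 1 fell in ES8 and 0 passed in Rh30 by edgeR or DESeq2 without the block, with 2 higher at an unadjusted p under 0.05. With the block 2 were called higher in Rh30, PARN and TOE1, named here after their values were seen. In Rh30 dRRM cells against sgCTL 8 of the 9 core genes were higher and 1 lower, with a median of 0.62, where 33.8% of all genes were called higher and 35% lower. The one lower was EXOSC6, at -0.22, named here after its value was seen. Scaling by library size alone left 6 higher and 1 lower, with a median of 0.38 where that of all genes was -0.25. Over all genes it called 3585 higher and 7226 lower of 15442. EXOSC3 and EXOSC9 lay in the same direction as those 8, the nuclease EXOSC10 in the opposite one.

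**Figure D5:**
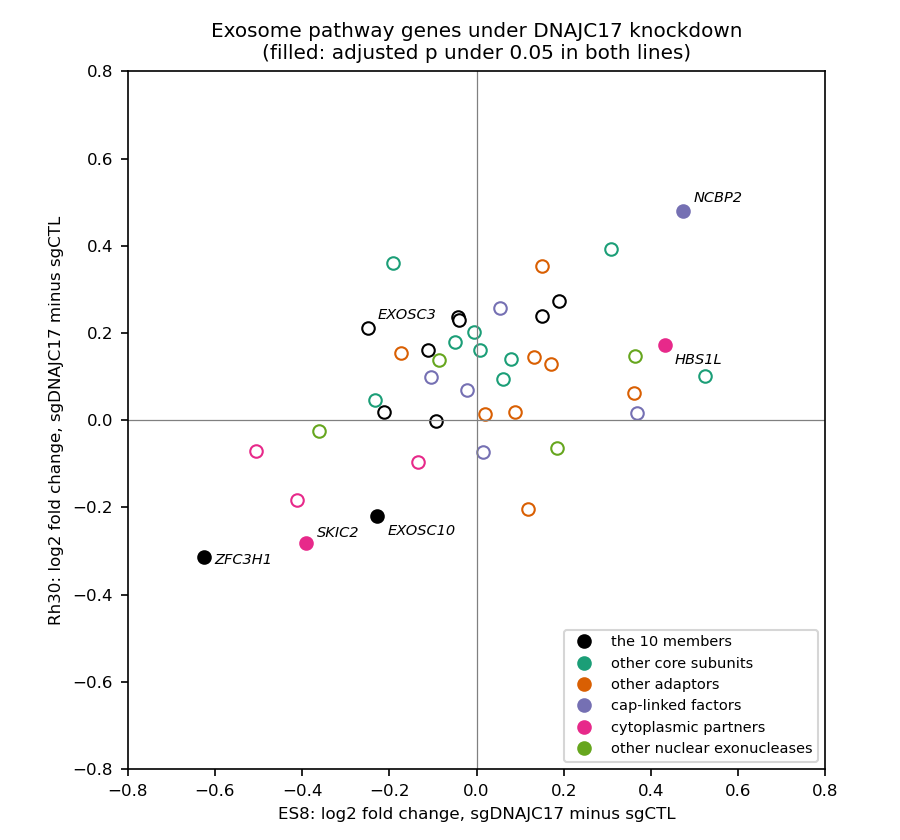
Log2 fold change after DNAJC17 knockdown in ES8 (x axis) and Rh30 (y axis) for the 10 members (black) and 32 other pathway genes (colours by list), filled where the edgeR adjusted p is under 0.05 in both lines. ZFC3H1, EXOSC10 and SKIC2 lie low in both, NCBP2 and HBS1L high in both, and EXOSC3 at -0.25 and 0.21.

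Some classes of transcript that the machinery clears were read from gene symbols alone. Of 763 small nucleolar and Cajal body RNA genes, 42 passed the filter in the ES8 knockdown comparison and 28 in that of Rh30, since most were at or near 0 in polyadenylated RNA. Of those, 17 were higher and 0 lower in ES8 (25 and 0 at an unadjusted p under 0.05). In Rh30 15 were higher and 0 lower (17 and 0). Over all genes 13.6% were called higher and 13.8% lower in ES8, and 16.1% and 16.2% in Rh30. DESeq2 applies its own filter, and for it the symbols were matched without requiring a digit, so its totals differ. It called 15 of 51 higher and 0 lower in ES8, and 10 of 23 higher and 0 lower in Rh30. The filter bears on these counts: a gene at or near 0 in the controls could pass it through the knockdown libraries alone, and 42 passed here against 32 in ES8 dRRM cells against sgCTL. The counts therefore describe the genes that passed and give no measure of the whole class. In the dRRM cells against the knockdown, under the same filter, 17 of 39 were lower in ES8. In Rh30 14 of 28 were lower and 3 higher. Over all genes 7.36% were called lower and 7.35% higher in ES8, and 30.5% and 29.4% in Rh30. Divergent promoter transcripts were taken as genes with the suffix -DT. In the knockdown 15 of 219 were higher and 6 lower in ES8 and 11 of 229 higher and 6 lower in Rh30, with medians of 0.04 and 0.02. These are 6.85% and 2.74% of those tested in ES8 and 4.8% and 2.62% in Rh30, below the shares over all genes. DESeq2 called 9 of 249 higher and 4 lower in ES8, and 4 of 205 higher and 4 lower in Rh30. In Rh30 dRRM cells against sgCTL, 103 of 241 were higher and 19 lower (42.7% and 7.88%) with a median of 0.52. Over all genes 33.8% were called higher and 35% lower. Scaling by library size alone moved the median of all genes in that comparison from -0.01 to -0.25. DESeq2 called 86 of 378 higher and 11 lower there. In ES8 0 of 222 were called, with 6 higher and 7 lower at an unadjusted p under 0.05 by edgeR, and DESeq2 called 0 of 92. Over all genes in ES8, 0.093% were called higher and 0.0814% lower. Many small nucleolar RNA genes lie within introns of other genes, so unspliced reads of the host can fall on them, and their levels were not separated from those of the hosts.

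Across all 18 libraries, with log2 CPM centred within each line, each member had a gene whose pattern was closer to it than that of any other member. The measure was the root mean square of the difference over the libraries, over 19360 genes. With so many genes set against a few members, a closer gene outside the list was likely whatever the members did. The ranking therefore does not show whether the members varied together. The closest were LARS1 for MTREX (0.046), RRN3 for ZCCHC8 (0.0458), METTL2B for EXOSC9 (0.0489), PDIA3 for PABPN1 (0.0494) and DHX57 for EXOSC10 (0.0514). They were PTP4A1 for RBM7 (0.0577), TTC27 for EXOSC3 (0.0635), PSMD5 for DIS3 (0.0797), KTN1 for ZFC3H1 (0.0859) and LPGAT1 for TENT4B (0.0887). The closest pair of members was EXOSC10 and PABPN1 at 0.11, followed by EXOSC3 and MTREX at 0.115 and RBM7 and EXOSC9 at 0.123. Against its own line mean, a member's root mean square ran from 0.112 (MTREX) to 0.293 (ZFC3H1).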

How the data were processed

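RNA-seq was made from 18 libraries in 6 groups of 3. The authors deposited 1 table per library of raw counts per gene with exon coordinates, made with Trimmomatic 0.36, STAR 2.5.2b and featureCounts (Subread 1.5.2) per the submitters' processing notes. The notes name GRCh38 and the methods an older build. Of 18942 protein-coding genes matched, 85.3% had starts no more than 1 kb from those of GRCh38, against 4.05% of 19567 for GRCh37, so positions are given as GRCh38. The annotation release and strand setting are not given in the sources used here. Symbols were paired with 55082 of 57500 gene IDs.

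Counts were tested two-sided with edgeR 4.0.16 in R 4.3.3 (TMM, filterByExpr, quasi-likelihood test, Benjamini-Hochberg adjustment over all genes tested), called at an adjusted p under 0.05, in the 6 libraries of each pair of groups or the 12 of each interaction. The scripts were tested on simulated data. Group levels are CPM with TMM over all libraries, with a prior count of 2 on the log2 scale. Alternatives were DESeq2 1.42.0, its size factors in edgeR, library size alone, all 18 libraries fitted at once, no filter, a minimum of 10 counts per library, stricter thresholds, the replicate letter as a block, and each library left out. Replicates of a group differed by more than sampling noise (mean chi-square per gene 2.63 to 31.8), so none were merged.

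Same-lettered libraries deviated together only in the Rh30 knockdown comparison (correlations over genes with at least 100 counts in every library of 0.316 to 0.610). The labels give the letters no further meaning. The members and lists were chosen with earlier results of these data known. Named genes were the 10 members, DNAJC17, and pathway genes called in both knockdown comparisons or past a fold change of 1.5 in one, with EXOSC6, PARN and TOE1 added after their values were seen. Marker and most-alike genes are named as examples of their measures.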

Additional observations from a re-analysis of the deposited data

Results flagged for a closer look

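The change after DNAJC17 knockdown differed between the lines for EXOSC3, by the interaction of line and knockdown over the 12 parental libraries (0.49 on the log2 scale, higher in 3 of 3 Rh30 libraries and lower in 3 of 3 ES8 libraries than in every control). The difference of dRRM sgDNAJC17 from sgCTL differed between the lines, by the same kind of interaction, for RBM7 (0.66), EXOSC9 (0.48), ZFC3H1 (-0.41), EXOSC10 (-0.30) and PABPN1 (-0.28). In the first 2 every Rh30 dRRM library was above every Rh30 sgCTL library, and in the last 3 every one was below, while the ES8 groups overlapped for all 5. Groups of 3 libraries were too small for a test of single outlying values.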

How the results depend on the processing

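Over the alternatives tried, 1152 values kept direction and side of the threshold, 74 lost their call, 25 gained one and 39 changed sign. Member counts changed by more than 1.5 times as follows. In ES8 after knockdown, 2 members became 4 with no filter and 1 at an adjusted p under 0.01. In Rh30, 7 became 2 with library size alone, 1 with all 18 libraries in 1 fit and 0 at 0.01, all without the block. Calls over all genes changed too, to 2652 higher and 2706 lower of 32644 with no filter in ES8. In Rh30 they were 1775 and 2272 of 19360 with all 18 libraries. For ES8 dRRM against knockdown, 1 became 2 with DESeq2 or no filter, 3 with all 18 libraries and 0 at 0.01. At 0.01 the interactions kept 0 of 1 (knockdown) and 3 of 5 (dRRM), and at a fold of at least 2 the count was 1 at baseline and 0 in every other comparison. With 1 library left out, counts ran from 1 to 6 and 0 to 7 after knockdown (ES8, Rh30), 0 to 2 and 4 to 5 for dRRM against knockdown, 0 to 0 and 7 to 9 for dRRM against sgCTL, 8 to 10 at baseline and 0 to 1 and 4 to 7 for the interactions. With the replicate letter as a block, EXOSC9 gained its call in Rh30 after knockdown (0.16), MTREX lost it for Rh30 dRRM against sgCTL (0.14, adjusted p = 0.0599) and ZCCHC8 lost it at baseline (-0.15, adjusted p = 0.0562), and no other member's call changed. The letters pair libraries only in the first of these.

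Library size alone turned MTREX to -0.041 after knockdown in Rh30. It turned MTREX to -0.092, ZCCHC8 to -0.015 and DIS3 to -0.20 for Rh30 dRRM against sgCTL, and EXOSC9 to -0.0065 in ES8. It turned MTREX to -0.052 and EXOSC3 to -0.14 for Rh30 dRRM against knockdown and EXOSC9 to -0.025 at baseline. For the interactions it turned EXOSC10 to -0.0061 (knockdown), MTREX to -0.013 and EXOSC3 to -0.074 (dRRM). It moved the median of all genes to -0.17 for Rh30 dRRM against knockdown. With all 18 libraries in 1 fit, EXOSC10 turned to 0.0037 for ES8 dRRM against sgCTL and to -0.030 for the knockdown interaction, and DIS3 to -0.00071 for Rh30 dRRM against sgCTL.

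Leaving out 1 library changed the sign of uncalled values, with these ranges. In ES8 after knockdown they were -0.19 to 0.019 (EXOSC9), -0.12 to 0.073 (DIS3) and -0.17 to 0.049 (TENT4B), and in Rh30 -0.0027 to 0.034 (MTREX) and -0.027 to 0.024 (PABPN1). For ES8 dRRM against sgCTL they were -0.15 to 0.020 (ZFC3H1), -0.054 to 0.0038 (ZCCHC8), -0.042 to 0.10 (RBM7), -0.053 to 0.092 (PABPN1), -0.040 to 0.050 (EXOSC9) and -0.022 to 0.022 (EXOSC10). Against knockdown they were -0.16 to 0.026 (TENT4B, ES8) and -0.018 to 0.058 (EXOSC3, Rh30), and for the knockdown interaction -0.015 to 0.20 (RBM7) and -0.021 to 0.061 (EXOSC10). The cause of these changes was not tested.

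With 3 libraries a group, differences of the size seen for most members lie near the threshold, and a value that missed it is not shown to be 0. Each member held at least 234 counts in every library.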
